A study of Mus musculus with 6 samples.

Results

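Adipocyte genes were followed through the uterus of aged mice, as 10 genes chosen by name: Adipoq, Plin1, Plin4, Fabp4, Lpl, Cd36, Cidec, Retn, Lep and Pck1. They are 10 of the 30828 genes counted in the tissue sections and 9 of the 24077 genes counted in the single cells, where Lep has no row. They were chosen after earlier results had placed adipocyte RNA in 1 group of spots of a DES section, so their levels are given as a description and carry no test of that pattern.

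White adipocytes store triglyceride in a single large droplet coated by perilipins, take up fatty acids from circulating lipoproteins, and secrete hormones that report on fat stores. Their gene program is driven mainly by the nuclear receptor PPARG together with C/EBP factors. The uterus itself holds few adipocytes, which lie in the mesometrium and along its outer surface, while mesothelial cells, macrophages and capillary endothelium use some of the same lipid-handling genes.

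Uteri came from female CD-1 mice of 12 months that had been injected under the skin on neonatal days 1 to 5 with corn oil (CO) or with diethylstilbestrol (DES, a synthetic estrogen) at 1 mg/kg/day. Visium sections came from 1 mouse each, with 2 sections in each group (CO A, CO B, DES A and DES B), and were cut from blocks cored around regions of interest. Before that a pathologist had looked for luminal and glandular epithelium in both groups, and for uterine adenocarcinoma in the DES sections. An effect of DES and the content of each cored area cannot be told apart, and the positions of spots were not examined. The single-cell libraries were 1 CO library from 2 pooled mice and 1 DES library from 4 pooled mice. No transgene or deletion was involved, and the CO mice were taken in estrus because DES mice stay in persistent estrus. The authors noted a tissue fold in CO B and trouble in naming the clusters of DES B.

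The sections held 1433, 1834, 1575 and 1357 spots and 12506177, 11032957, 9117099 and 9880021 UMIs (unique molecular identifiers, 1 for each captured RNA molecule), in the order CO A, CO B, DES A, DES B. A Visium spot is a small area of tissue that can hold several cells or part of one, and the authors grouped the spots of each section into 10 clusters, numbered anew in each section, so that equal numbers in different sections do not mean equal regions. Levels are given as CPM, the UMIs of a gene per 1e6 UMIs of the section, cluster or cell type. Intervals are exact 95% Poisson intervals and cover counting error only. With 3 UMIs as the limit that a count of 0 allows, the lowest detectable level was 0.240 to 0.329 CPM in a whole section. Fewer adipocytes and less RNA per adipocyte cannot be told apart in a section.

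The genes are placed on the mm10 assembly (GENCODE M21 gene bounds on GRCm38), with Adipoq at chr16:23146536-23158028, Plin1 at chr7:79720218-79732903, Cidec at chr6:113424634-113435760, Lep at chr6:29060220-29073877 and Retn at chr8:3655770-3660110. Fabp4 lies at chr3:10204088-10208576, Lpl at chr8:68880491-68907448, Cd36 at chr5:17781690-17888801, Plin4 at chr17:56100591-56109803 and Pck1 at chr2:173153048-173159273. RefSeq promoter entries (build GRCm38.p6) were found for 8 of the 10 genes, in 9 windows, with none for Fabp4 and Lpl. The 250 bases before the start site were searched on both strands for 2 patterns, the PPAR direct repeat AGGTCANAGGTCA and the C/EBP pattern TTGCNNAA, which do not overlap each other in any member. The C/EBP pattern was found in 3 of the 9 member windows, those of Lep, Plin1 and 1 of the 2 start sites of Cidec, and in 9.56% of all 32851 promoter windows. The PPAR repeat was in no member window and in 0.0335% of all windows. The 3 windows with a match, and that of Adipoq for comparison, are given here 5′ to 3′ on the gene's own strand, with C/EBP pattern matches in capitals. They are Adipoq (chr16:23146286-23146535, plus strand), Plin1 (chr7:79732777-79733026, minus strand), Lep (chr6:29059971-29060220, plus strand) and the Cidec window with a match (chr6:113434765-113435014, minus strand).
Adipoq: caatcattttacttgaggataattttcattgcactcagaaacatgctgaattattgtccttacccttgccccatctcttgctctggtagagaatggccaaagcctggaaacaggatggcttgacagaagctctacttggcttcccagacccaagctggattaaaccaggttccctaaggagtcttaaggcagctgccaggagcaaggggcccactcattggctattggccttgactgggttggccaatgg
Plin1: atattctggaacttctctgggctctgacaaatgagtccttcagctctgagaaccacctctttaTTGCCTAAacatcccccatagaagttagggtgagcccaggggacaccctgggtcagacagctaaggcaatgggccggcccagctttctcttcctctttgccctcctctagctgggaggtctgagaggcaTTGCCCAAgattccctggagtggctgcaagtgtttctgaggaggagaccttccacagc
Lep: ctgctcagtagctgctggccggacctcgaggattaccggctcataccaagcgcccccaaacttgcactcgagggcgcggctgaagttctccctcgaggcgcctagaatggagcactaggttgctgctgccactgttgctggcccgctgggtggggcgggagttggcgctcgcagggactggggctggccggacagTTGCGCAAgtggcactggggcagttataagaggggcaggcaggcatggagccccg
Cidec: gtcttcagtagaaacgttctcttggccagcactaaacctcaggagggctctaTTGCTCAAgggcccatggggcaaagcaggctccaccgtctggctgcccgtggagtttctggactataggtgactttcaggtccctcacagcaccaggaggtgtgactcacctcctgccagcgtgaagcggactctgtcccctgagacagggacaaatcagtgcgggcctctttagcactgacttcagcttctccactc
The Lep match begins 55 bases before the start site and reads TTGCGCAA, the Cidec match begins 198 bases before it, and the Plin1 matches begin 187 and 58 bases before it. Adipoq held no match in this window, which says only that these letters are not in it.

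Over whole sections, 5 of the genes, here called the adipocyte-restricted genes and grouped after their values were seen, were at or near 0 in both CO sections and were counted mainly in DES A. Adipoq encodes adiponectin, the hormone secreted by fat cells. Both CO sections had 0 UMIs of it, whereas DES A had 36 (3.95 CPM) and DES B had 12 (1.21 CPM). Cidec, which encodes a protein that fuses lipid droplets into the single large droplet of white adipocytes, had 0, 2, 32 and 6 UMIs in the same order. Retn, which encodes the secreted protein resistin, had 1, 2, 24 and 0 UMIs. DES A was thus the highest section for each of these, whereas DES B was above both CO sections for Adipoq and Cidec and at 0 for Retn. Plin1, the perilipin that coats the adipocyte droplet, had 1, 1, 8 and 4 UMIs, and Lep, encoding leptin, had 0, 0, 5 and 2. The counting intervals of CO B and DES B overlapped for Plin1 (0.00229 to 0.505 against 0.110 to 1.04 CPM), Cidec, Retn and Lep.

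The other 5 genes were counted in every section, and their levels did not separate the groups, apart from Plin4. Fabp4, which carries fatty acids in adipocytes, macrophages and capillary endothelium, had 9.995 and 25.1 CPM in the CO sections (A, then B) and 30.7 and 15.4 CPM in the DES sections. Lpl, the lipase that frees fatty acids from lipoproteins, had 36.0, 33.2, 79.0 and 25.8 CPM, and Cd36, a fatty acid receptor of adipocytes, macrophages and small vessels, had 3.598, 13.4, 11.8 and 3.04 CPM. In all 3 the DES sections bracketed at least 1 CO section. Pck1, a gluconeogenic enzyme that adipocytes use to make glycerol for triglyceride, had 0.7996 and 12.9 CPM in the CO sections and 4.61 and 2.33 CPM in the DES sections, so the DES sections lay between the 2 CO sections. Plin4, a perilipin of small droplets, had 9.76 and 35.1 CPM in the CO sections and 6.14 and 7.996 CPM in the DES sections. Its DES values were the lower pair, but DES B and CO A had overlapping counting intervals (6.33 to 9.97 against 8.10 to 11.6 CPM).

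**Figure D1:**
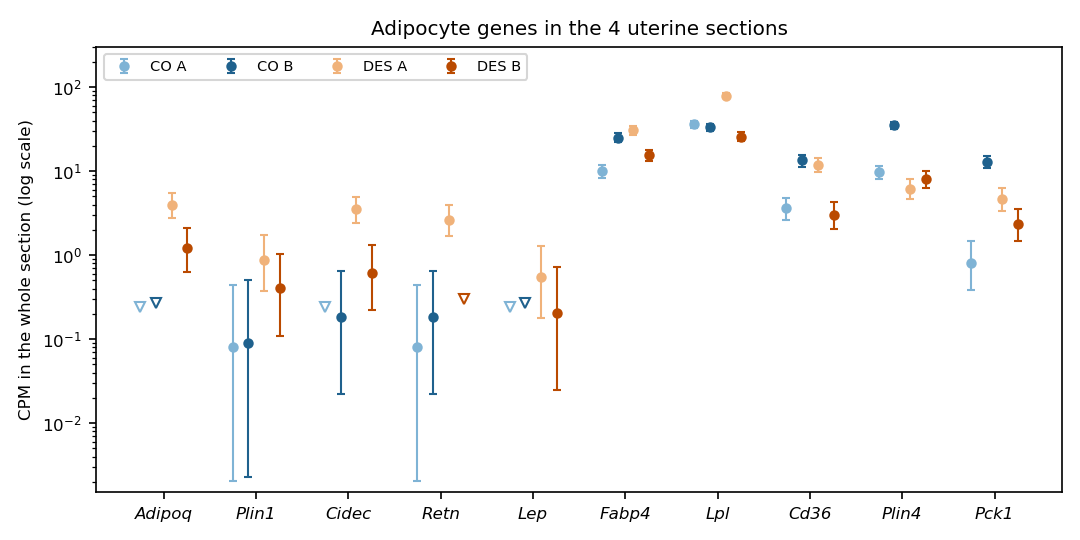
Level of each adipocyte gene in the 4 sections (CPM, log axis); points are sections, bars are exact 95% Poisson intervals of the count, and open triangles mark a count of 0, drawn at 3 UMIs of the section. The 5 genes at left were at or under 0.181 CPM in both CO sections, with DES A reaching 3.95 CPM for Adipoq, and the 5 at right were present in all sections.

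The sections were also compared as 2 DES against 2 CO, a comparison the choice of genes already touched, so the count of members is read for nothing. With edgeR (quasi-likelihood test, p adjusted by Benjamini-Hochberg over 14098 genes), 2.67% of genes were higher and 2.63% lower in DES sections, and 0 of the 6 members that passed the count filter were in either class. Plin1, Cidec, Retn and Lep did not reach the filter. At an unadjusted p under 0.05, 3438 genes differed, Adipoq and Plin4 among them. DESeq2 called Adipoq higher and Plin4 lower, where it called 5.83% of genes higher and 6.87% lower. Adipoq had 0 UMIs in both CO sections and passed the filter through the DES sections alone, so its call is read for nothing.

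Leaving out cluster 9 of DES B, the region used to choose the genes, took Adipoq under the filter and left 5 members in the test. Of these 0 passed, where 2.69% of 14071 genes were higher and 2.65% lower. The spots were taken from DES B only, so its Fabp4, Lpl and Cd36, highest in that cluster, were lowered by construction. The log2 differences of DES minus CO were -1.85 ± 0.63 (SE) for Plin4, 0.06 ± 0.61 for Fabp4, 0.34 ± 0.54 for Lpl, -0.44 ± 0.88 for Cd36 and -1.16 ± 1.18 for Pck1, with edgeR adjusted p from 0.166 for Plin4 to 0.968 for Fabp4. Plin4 was thus the member nearest to the threshold, in the direction of lower DES levels. With CO A left out, CO B was the only control section, it held the highest Plin4 and Pck1, and it was assumed to vary like the DES pair. In that fit 8.92% of 14533 genes were higher and 10.3% lower in DES, Plin4 and Pck1 among the lower (edgeR adjusted p = 0.00704 and 0.0314), while without CO B the difference of Pck1 was 1.86. The same 2 genes passed as lower in whole sections without CO A, where 9.02% of genes were higher and 10.4% lower. DESeq2 called Plin4 alone of the 5 members without DES B cluster 9, beside 5.84% of genes higher and 6.91% lower. With cluster 9 of both DES sections left out, an alternative added after the data were seen, Fabp4 stood at -0.39 ± 0.49. Here 0 of 5 members passed beside 2.72% of genes higher and 2.69% lower. Those spots had the highest Fabp4 of each DES section and nothing was taken from the CO sections, so its fall was fixed in advance.

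The adipocyte signal of DES A lay in its cluster 9, a region of 9 spots with 20874 UMIs and a median of 2064 UMIs a spot, 0.571% of the section's spots. Of the 105 UMIs of the adipocyte-restricted genes in DES A, 82 were in these 9 spots. Adipoq was at 1293 CPM there (27 UMIs, interval 852 to 1882) against 0.989 CPM in the other spots, Cidec at 1246 CPM (26 UMIs) against 0.660 CPM, and Retn at 910 CPM (19 UMIs) against 0.550 CPM. Plin1 had 6 of its 8 UMIs and Lep 4 of its 5 UMIs in the cluster. Each of these genes had most of its UMIs in these few spots.

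Of the more widely expressed genes, Fabp4, Plin4, Lpl and Cd36 were higher in the same 9 spots, by smaller factors than Adipoq, Cidec and Retn. Plin1 and Lep, on few UMIs, had factors whose intervals overlapped those of Fabp4 and Plin4. Fabp4 was at 4982 CPM (104 UMIs), 257-fold (200 to 330) its level in the other spots, and Plin4 at 958 CPM (20 UMIs), 242-fold (133 to 430). Lpl was at 1533 CPM (32 UMIs), 20.3-fold (13.8 to 28.9), and Cd36 at 192 CPM (4 UMIs), 16.8-fold (4.48 to 44.2). Pck1 had 0 UMIs there, which allows up to 144 CPM. In all, 9 of the 10 members had an interval above that of the other spots, where 3.16% of 14822 genes did and 1.06% lay below. The genes were chosen with earlier results of these data known, so that count is read for nothing.

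**Figure D2:**
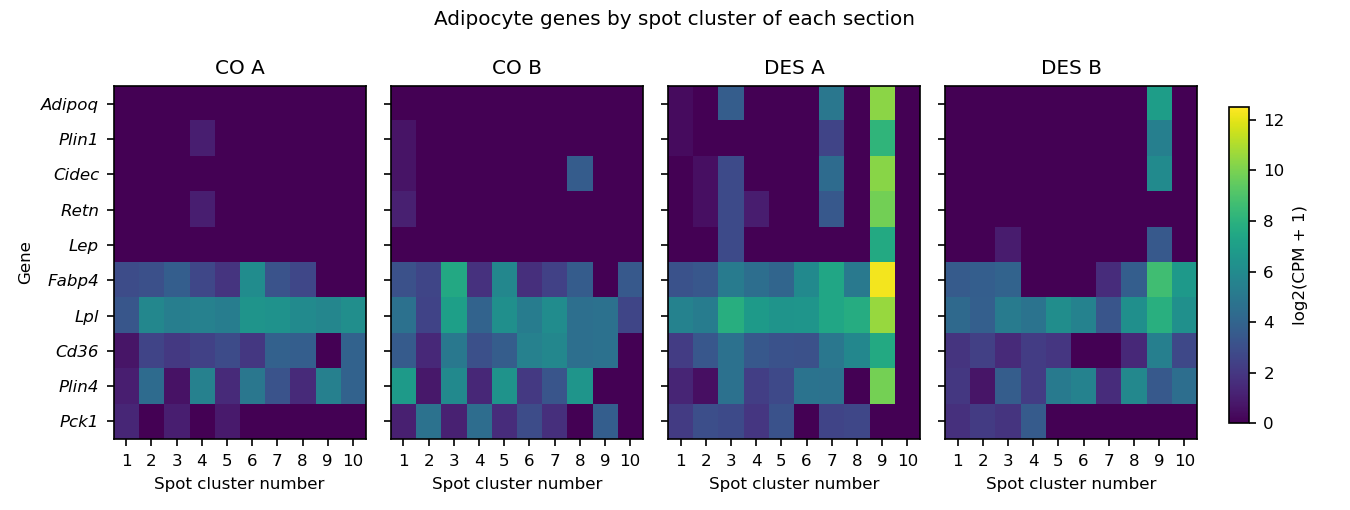
Level of each adipocyte gene in the 10 spot clusters of each section, as log2(CPM + 1), with cluster numbers on the x axis and genes on the y axis. Cluster 9 of DES A holds the highest value of 9 genes, and cluster 9 of DES B the highest value of its section for 7 of them.

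Cluster 9 of DES B, the region that the choice of genes had singled out as adipose, was larger and weaker. It had 47 spots with 96861 UMIs and a median of 1771 UMIs a spot. Adipoq was at 124 CPM (12 UMIs, 64.0 to 216) with 0 UMIs in all other spots, and Cidec was at 61.9 CPM (6 UMIs), also with 0 UMIs elsewhere. The 95% lower limits of these ratios were 281-fold and 119-fold. Fabp4 was at 403 CPM (39 UMIs), 34.9-fold (23.6 to 50.6) its level in the other spots, Lpl at 237 CPM, 10.0-fold (6.22 to 15.4), and Cd36 at 41.3 CPM (4 UMIs), 15.5-fold (3.94 to 44.8). Plin1 had 4 UMIs in the cluster and 0 outside it, Lep 1 and 1, Plin4 1 and 78, and Retn and Pck1 none in the cluster. An interval above the other spots was found for 5 of the 7 members with at least 5 UMIs in the section, where 6.37% of 14764 genes were above and 5.54% below, and this count too is read for nothing.

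The adipocyte-restricted UMIs of DES B cluster 9 came from 2 spots. Of the section's 24 UMIs of the adipocyte-restricted genes, 17 were in 1 spot (1366 UMIs in all) and 6 in another (994 UMIs), both in cluster 9, and the last was 1 Lep UMI in a spot of cluster 3. The first spot held 11 UMIs of Adipoq, 3 of Plin1, 3 of Cidec, 27 of Fabp4 and 9 of Lpl, and the second held 1, 1, 3, 3 and 2. In the sum of these 2 spots Adipoq was at 5085 CPM (2627 to 8882), Cidec at 2542 CPM (933 to 5534) and Fabp4 at 12712 CPM (8577 to 18147). These 2 spots were picked for holding such UMIs, so their levels are not set against those of DES A cluster 9.

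The other 45 spots of DES B cluster 9, 94501 UMIs in all, are those without a UMI of the adipocyte-restricted genes. Their Fabp4 was 95.2 CPM (9 UMIs, 43.5 to 181) against 11.6 CPM in the other clusters of the section (9.52 to 13.9), and their Lpl was 127 CPM (12 UMIs, 65.6 to 222) against 23.7 CPM (20.8 to 26.97). These 2 genes were thus higher in the 45 spots than in the pooled other clusters of the section, whereas Cd36 had 1 UMI in the 45 spots. They were not higher than in each other cluster. In DES B cluster 10, second to cluster 9 for both genes, Fabp4 was at 104 CPM and Lpl at 76.5 CPM. Both levels lay within the intervals of the 45 spots. The summed level of the 10 members in DES B cluster 9 was 19.2-fold (15.2 to 24.1) that of the other spots of the section. Without the 2 spots it was 5.03-fold, a fall fixed by how those spots were picked. Adipocyte-restricted RNA was thus counted throughout DES A cluster 9 and, in DES B, in 2 of the 47 spots of the cluster that had been taken as adipose.

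In DES A all 9 spots of cluster 9 held at least 1 UMI of the adipocyte-restricted genes, with 24, 20, 10, 8, 6, 5, 5, 3 and 1 UMIs, and 8 of them held at least 2 of the genes. Outside the cluster, 14 spots held a UMI, 3 of them with at least 2 of the genes, in clusters 7, 7 and 3. The best of these, in cluster 7, had 6 UMIs. The CO sections had 2 UMIs in 2 spots (CO A) and 5 UMIs in 5 spots (CO B), and no spot there held 2 of the genes.

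**Figure D3:**
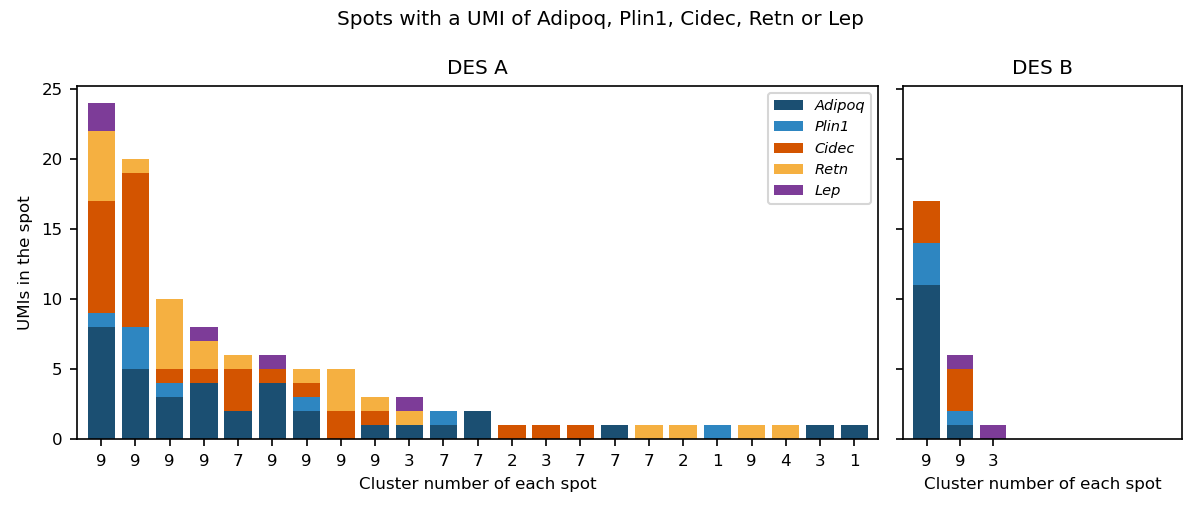
UMIs of Adipoq, Plin1, Cidec, Retn and Lep in each spot that held any of them, in DES A (left, 23 spots) and DES B (right, 3 spots), stacked by gene, with the spot's cluster number under each bar. The signal spreads over all 9 spots of cluster 9 in DES A and sits in 2 spots of cluster 9 in DES B, with 17 and 6 UMIs.

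The leading genes of the 2 clusters, ranked by CPM ratio to the other spots among genes at 50 CPM or more, shared Cfd, Adipoq, Car3 and Cidec. In DES A they were Car3, Cidec, Lep, Retn, Cfd, Adipoq, Crtac1, Plin1, Nnat and Tusc5. That order is not fixed, since Lep had 4 UMIs in the cluster and 1 outside, and Adipoq, Crtac1 and Plin1 had equal ratios. In DES B the leading genes were Cfd, Adipoq, Car3, Cidec, Nkain4, Kng2, Inmt, Hp, Scn7a and Serpina3n. The places of Adipoq and Cidec in DES B are not fixed, since their ratios are lower bounds against 0 UMIs in the other spots. Cfd encodes adipsin, a complement protease secreted by fat cells, and was at 15091 CPM (315 UMIs) in DES A cluster 9 and 743 CPM (72 UMIs) in DES B cluster 9, with 59 of those 72 UMIs in the same 2 spots. In whole sections Cfd had 0.240, 1.36, 45.5 and 7.59 CPM in the order CO A, CO B, DES A, DES B. A further 13 Cfd UMIs lay in 4 of the other 45 spots of DES B cluster 9, where no adipocyte-restricted member was counted.

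Markers of other cells moved with these regions. The adipocyte markers that are not members summed to 20935 CPM in DES A cluster 9, with 1 of 8 at 0, and to 1249 CPM in DES B cluster 9, with 4 of 8 at 0. Cfd and Car3, named above among the leading genes, gave 418 of the 437 UMIs of that sum in DES A and 115 of the 121 in DES B, and the other markers summed to 910 and 61.9 CPM. The 5 mesothelial markers summed to 95.8 CPM in DES A cluster 9, with 3 at 0, and to 392 CPM in DES B cluster 9, with none at 0 and the highest sum of that section. The 6 stromal markers gave the highest sum of the section in both (4791 and 5276 CPM), with 3 at 0 in DES A cluster 9 and 1 at 0 in DES B cluster 9. The 5 myeloid markers had their highest sum of DES B in its cluster 9 (2333 CPM, none at 0) and summed to 1389 CPM in DES A cluster 9, with 1 at 0. Lymphocyte markers were also highest in DES B cluster 9 (134 CPM, 1 of 4 at 0), and its lymphatic markers summed to 114 CPM. In DES A cluster 9 pericyte markers were the highest of the section (527 CPM, 3 of 4 at 0) and endothelial markers summed to 383 CPM, with 1 of 5 at 0. In the 45 DES B spots the matrix gene Dcn was at 3735 CPM, Dpt, another fibroblast matrix gene, at 804 CPM and the mesothelial gene Msln at 127 CPM (12 UMIs in 4 spots). The part of these cells in the members' levels was not tested.

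Other genes of adipocyte metabolism were read from lists of related genes. Over all genes, 3.16% lay above and 1.06% below the other spots in DES A cluster 9, and 6.37% and 5.54% in DES B cluster 9. Of 13 genes of fatty acid and triglyceride synthesis, 5 lay above the other spots in DES A and none below, among them Fasn, the fatty acid synthase (527 against 172 CPM), Dgat2, which makes triglyceride (1293 against 187 CPM), and Scd1, the stearoyl-CoA desaturase, named after its value was seen (2874 against 12.0 CPM). In DES B the same list had 1 gene above (Lpin1, 3 UMIs) and 2 below (Dgat2, at 72.3 against 162 CPM, and Acly, 1 UMI), the first and the last named after their values were seen. The intervals of Fasn (103 against 167 CPM) and of Acaca, the acetyl-CoA carboxylase (51.6 against 23.9 CPM), overlapped those of the other spots. Of the lipolysis and droplet list, 4 of 10 genes with enough UMIs were above in DES A, such as the lipases Lipe (623 against 19.6 CPM) and Mgll (575 against 62.9 CPM), and 0 of 9 in DES B, where Lipe was at 51.6, Mgll at 61.9 and Plin2 at 61.9 CPM.

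Of the secreted proteins, 3 of the 5 with enough UMIs lay above the other spots in DES A cluster 9 and 4 of 5 in DES B cluster 9. The 5 were not the same genes, since Sfrp5 (0 UMIs in the cluster) had enough UMIs only in DES A and Agt only in DES B, where it was the fourth gene above with 2 UMIs, both named after their values were seen. Besides Cfd, Rbp4, a retinol carrier, was at 910 CPM in DES A cluster 9 and 145 CPM in DES B cluster 9, 15.4-fold and 3.16-fold the other spots, and Angptl4, an inhibitor of LPL, at 527 and 145 CPM, 19.6-fold and 6.55-fold. Of 9 uptake genes, 2 lay above the other spots in DES A cluster 9 and 1 in DES B cluster 9. Cav1, the main protein of caveolae, was 10.8-fold and 6.29-fold higher. Irs1 and Insr overlapped the other spots in both, with Insr at 0 UMIs in DES A cluster 9. Pi16, which marks fibroblast progenitors of fat and vessel sheaths, was 14.2-fold and 16.0-fold higher, while Ly6a, another progenitor gene, was below the other spots in both (527 against 1009 and 692 against 903 CPM). Of the transcription factors, Cebpa was at 192 CPM (4 UMIs) in DES A cluster 9, above the other spots, and at 61.9 CPM (6 UMIs) in DES B cluster 9, where its interval overlapped that of the other spots. Cebpb and Srebf1 overlapped in both. Pparg, named here after its value was seen, had 0 UMIs in cluster 9 of both sections and 3 and 16 UMIs in their other spots. No thermogenic gene was above in either region, Ucp1 was at 0 UMIs in both, and Dio2 was at 47.9 CPM (1 UMI) and 155 CPM (15 UMIs). The median log2 ratio in DES A, with 50 CPM added to both levels, was 2.91 for the secreted, 1.18 for the synthesis, 0.95 for the transcription factor, 0.78 for the uptake, 0.16 for the lipolysis and droplet, -0.07 for the thermogenic and -0.23 for the progenitor list, beside -0.13 for all genes. In DES B the 7 medians ran from -0.10 for the synthesis list to 1.02 for the secreted list, with the next at 0.22, beside -0.05 for all genes.

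Across the 40 clusters of the 4 sections, the genes whose log2(CPM + 1) was most like that of Adipoq, among 13682 genes with at least 50 UMIs, were Cfd (Pearson r = 0.956), Car3 (0.843), Sncg (0.717), Xrcc3 (0.701) and Ildr2 (0.694). Among the members r was 0.954 for Cidec, 0.945 for Plin1, 0.911 for Lep and 0.832 for Retn. It was 0.691 for Fabp4, 0.586 for Lpl, 0.526 for Cd36, 0.416 for Plin4 and -0.09 for Pck1. Clusters of 1 section share a library, and the coefficients are a description that rests largely on the 2 clusters numbered 9.

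Within each CO section, Fabp4 and Lpl were highest in the same cluster. Fabp4 was at 65.6 CPM (42 UMIs) in CO A cluster 6 and 184 CPM (152 UMIs) in CO B cluster 3, which held 33.6% and 54.9% of the section's Fabp4 UMIs. Lpl was also highest there, at 87.5 and 130 CPM, though in CO A its level in cluster 7 was close, at 83.0 CPM. CO A cluster 6 and CO B cluster 3 had the highest summed endothelial markers of their sections (302 and 339 CPM). They also had the highest myeloid and lymphatic sums, and smooth muscle sums of 29500 and 21295 CPM. Stromal markers were second of the 10 clusters in CO A cluster 6 (4842 CPM) and highest in CO B cluster 3 (5590 CPM), and mesothelial markers were second in both (67.2 and 97.1 CPM). Their adipocyte markers other than members summed to 25.0 and 54.6 CPM, with 3 of 8 at 0 in each. The part of each cell type in Fabp4 there was not tested.

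Plin4 followed the muscle of the uterine wall in CO sections. Clusters with Acta2, the smooth muscle actin gene, above 5000 CPM (a limit set after the data were seen) held 89.3% of the Plin4 UMIs of CO A in 30.8% of its UMIs, at 28.3 CPM against 1.502 CPM elsewhere. In CO B they held 96.9% of the Plin4 UMIs in 37.2% of its UMIs, at 91.3 against 1.73 CPM. Plin4 was therefore mostly counted in muscle-rich spots of both CO sections. In DES A the single such cluster had 26.1 CPM and held 25.0% of the section's Plin4 UMIs, and in DES B it had 55.7 CPM and held 40.5%. Within muscle-rich clusters the DES levels of 26.1 and 55.7 CPM overlapped the CO levels of 28.3 and 91.3 CPM. These clusters made up 5.88% and 5.82% of UMIs in the DES sections, and all 5 smooth muscle markers passed edgeR's test as lower in whole DES sections, calls that were lost, with every other lower call, when either DES section was left out. The part of muscle in the section levels of Plin4 was not tested.

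The single cells held almost no adipocyte-restricted RNA. The 4 such genes with rows gave 25 UMIs in 25 of 32387 CO cells and 16 UMIs in 16 of 16312 DES cells, and 0 cells held 2 of them. That count limits cells with UMIs of 2 of these genes to 0.00926% and 0.0184%, not the share of adipocytes, since a cell can carry a gene's RNA without a captured UMI. The cells had also been filtered and pelleted by centrifugation before capture, and whether adipocytes were lost in those steps was not tested. Adipoq had 0 UMIs in the CO library and 5 in the DES library, and Cfd had 1 UMI in both libraries together. No cell type in either library was thus marked by these genes. The cell types are the authors' own, given for 12253 CO and 9701 DES cells, and 180 cell barcodes occur in both libraries. With 1 library in each group no difference between CO and DES was tested, and shares of cells were taken after thinning each cell to 3000 UMIs.

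Fabp4 was carried mainly by 1 DES cell type. The 136 cells that the authors called DES-Myeloid-Lyz2hi had 2330 CPM of Fabp4 (2267 to 2395) and 5192 of the 6136 Fabp4 UMIs of the DES library. After thinning, 83.2% of 131 such cells held a Fabp4 UMI, and 0.365% of DES epithelial cells did (median depths 15418.5 and 21900 UMIs). The other DES myeloid cells were at 2.45 CPM (5 UMIs). In the CO library the highest level was in stromal cells, at 39.4 CPM (463 UMIs, 7.37% of thinned cells against 0.156% of epithelial cells), and endothelial cells had 5.71 CPM (15 UMIs). Epithelial cells lay at 1.04 CPM in CO and 0.778 CPM in DES.

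Lpl was high in several types that are not adipocytes. Mesothelial cells, which line the outer surface of the uterus, had 585 CPM (579 to 590) in the CO library and 309 CPM (305 to 313) in the DES library, and 71.99% and 52.4% of thinned cells held an Lpl UMI. The epithelial background was 1.95% and 0.846% of thinned cells (7.09 and 2.13 CPM). The cells named Mesothelial held more stromal than mesothelial marker RNA (17796 against 2441 CPM in CO and 19031 against 2573 CPM in DES). DES-Myeloid-Lyz2hi cells had 1211 CPM (76.3% of thinned cells), the 22 CO cells named Stmn1-hi 588 CPM (517 to 666, 72.7% of thinned cells), CO stromal cells 307 CPM and the 67 CO cells named Myeloid 302 CPM. The CO mesothelial cells alone gave 48579 of the 87360 Lpl UMIs of that library. Median depths were 10436 and 12329 UMIs for mesothelial cells and 23458 and 21900 UMIs for epithelial cells in CO and DES.

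Among annotated cells Cd36 was highest in the types the authors named Myeloid, Ctla2a and Lymphocytes in CO and in those named Lymphocytes and DES-Myeloid-Lyz2hi in DES. The cells named Lymphocytes held more myeloid than lymphocyte marker RNA (3358 against 704 CPM in CO and 8819 against 449 CPM in DES), and those named Myeloid in CO held 4349 CPM of stromal against 3226 CPM of myeloid markers. CO myeloid cells had 92.5 CPM (57 UMIs), CO Ctla2a cells 54.5 CPM (152 UMIs), CO lymphocytes 27.1 CPM, DES lymphocytes 50.4 CPM (75 UMIs) and DES-Myeloid-Lyz2hi cells 39.5 CPM (88 UMIs). The DES cells named Myeloid had 3.92 CPM (8 UMIs). Mesothelial cells had 0.168 CPM in CO and 0.124 CPM in DES. Plin4 was scarce, with 22 UMIs in all CO cells and 6 in all DES cells, and the 85 CO myocytes had 2 of them (1.82 CPM, 0.221 to 6.59). Its level in muscle-rich spots was thus not seen in the few muscle cells captured, at a limit set by 1096638 UMIs.

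**Figure D4:**
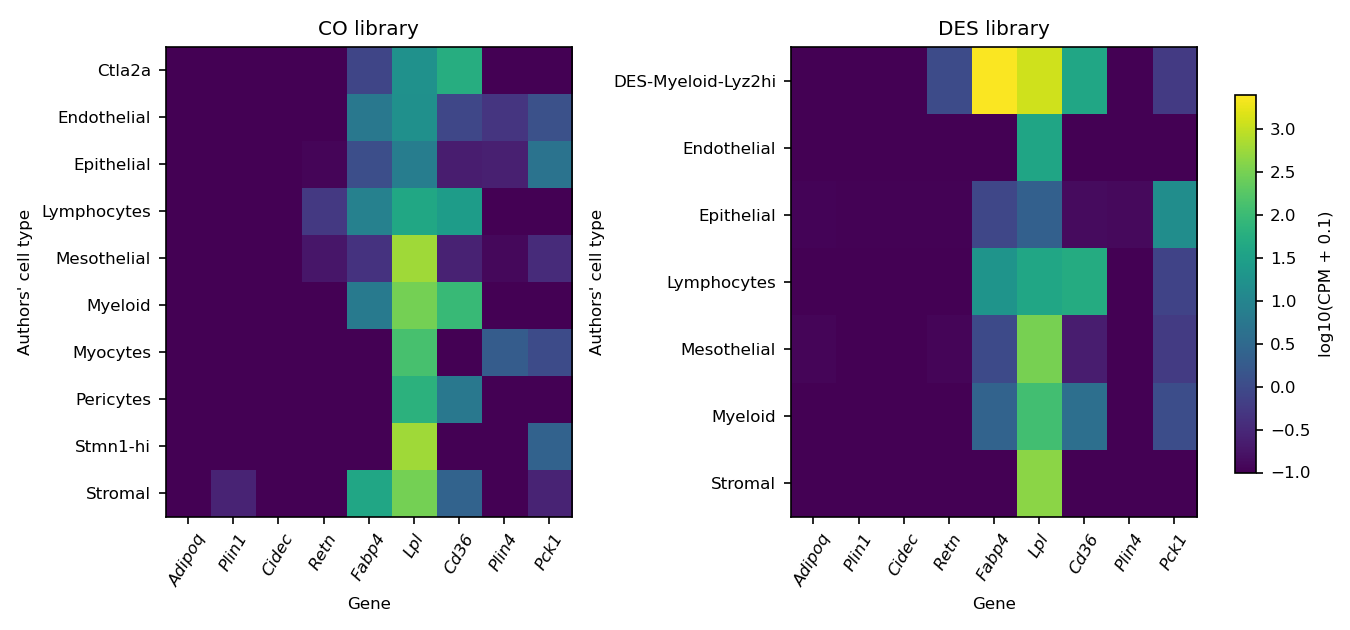
Level of 9 adipocyte genes (x axis) in the authors' cell types (y axis) of the CO library (left) and the DES library (right), as log10(CPM + 0.1). Fabp4 and Lpl stand highest in DES-Myeloid-Lyz2hi cells (2330 and 1211 CPM), Lpl is high in mesothelial cells of both libraries, and Adipoq, Plin1, Cidec and Retn are near 0 in all types.

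Pck1 was counted mainly in epithelial cells. In the single cells 367 of 645 Pck1 UMIs of the CO library and 2556 of 2929 of the DES library lay in cells annotated as epithelial, at 4.66 CPM (4.19 to 5.16) and 14.5 CPM (14.0 to 15.1). After thinning, 1.48% and 4.19% of epithelial cells held a UMI, against 0.0595% and 0.238% of mesothelial cells. Among the authors' epithelial clusters the CO levels ran from 0 to 138 CPM with a median of 2.54 over 15 clusters, and 123 of the 367 UMIs came from the 62 cells of CO cluster 13 (138 CPM, 115 to 165). The 16 DES clusters ran from 4.73 to 48.3 CPM with a median of 16.0. CO cluster 3 gave a further 68 UMIs (13.9 CPM), and 1 CO cluster had none. In the DES library cluster 4 gave 622 of 2535 UMIs (23.3 CPM), and cluster 8 had the highest level. In the sections Pck1 was highest in CO B, at 25.2 CPM in cluster 2 (102 UMIs) and 21.4 CPM in cluster 4 (26 UMIs), with 0 UMIs in both clusters numbered 9 of the DES sections.

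**Figure D5:**
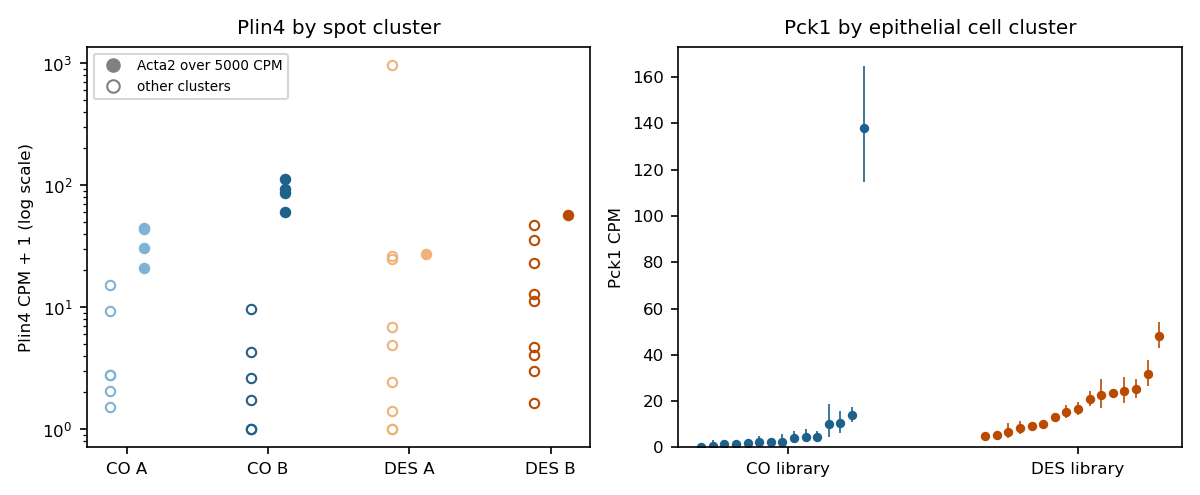
Left, Plin4 in each spot cluster of the 4 sections (CPM + 1, log axis), with filled points for clusters with Acta2 above 5000 CPM; right, Pck1 in each epithelial cluster of the CO and DES single-cell libraries (CPM), with exact 95% Poisson intervals. Filled points are the highest in both CO sections, and 1 CO epithelial cluster stands at 138 CPM while DES clusters range from 4.73 to 48.3 CPM.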

How the data were processed

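Deposited UMI counts per gene were used as the authors made them, with Space Ranger 1.2.2 for spots and Cell Ranger 3.0.1 for cells, on mm10. Spot clusters, cell types and epithelial clusters are the authors' labels. The authors' saturation fraction per cell was deposited too and was not used. Members and gene lists were chosen with earlier results of these data known. The rule named the 10 members, the 5 genes most like Adipoq over 40 clusters, the 10 leading genes of DES B cluster 9 at 50 CPM or more, and the 3 highest genes of each adipocyte list there. Counts were summed by section, cluster and cell type, and CPM was computed from the sums. Sections were compared with edgeR 4.0.16 (TMM, filterByExpr, glmQLFit and glmQLFTest, adjusted p under 0.05), and the fit was also run on simulated data. Only better-counted genes were changed there, at a common dispersion, so that run does not bear on the adipocyte-restricted genes. Alternatives were DESeq2 1.42.0 and its size factors, no filter, a replicate block and each section left out. No doublet removal was added. The authors' cell list had 350 rows without a library name, and only cells in the count table were used. Sections come from separate mice. All 6 samples had a group.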

Additional observations from a re-analysis of the deposited data

How the results depend on the processing

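The whole-section comparison gave 747 genes past the threshold (edgeR). That number was not stable, rising without either CO section and falling without either DES section. DESeq2 gave 1791, and leaving out 1 section gave 3 to 2819 (2819 without CO A, 2336 without CO B, 14 without DES A and 3 without DES B). Without DES B cluster 9 there were 751 genes, 1794 by DESeq2 and 3 to 2788 with 1 section left out (2788 without CO A, 2298 without CO B, 14 without DES A, 3 without DES B). Members past the threshold were 0 in both comparisons, 2 (whole sections) and 1 (without DES B cluster 9) by DESeq2, and 0 to 2 in each with 1 section left out, 2 of them without CO A. The replicate block, which pairs sections by label number, gave 527 genes in whole sections and 496 without DES B cluster 9, with 0 members in both. The numbers are not a pairing in the labels, and the deviations of same-numbered sections correlated at -0.0254. For single members the log2 difference in whole sections ran, with 1 section left out, from -2.49 to -0.69 for Plin4, -0.36 to 0.96 for Fabp4, -0.61 to 0.93 for Lpl, -1.64 to 0.79 for Cd36 and -2.09 to 1.86 for Pck1. Adipoq, at 0 UMIs in both CO sections, fell under the count filter without DES A. Without DES B cluster 9 it ran from -2.49 to -0.69 for Plin4, -0.77 to 0.83 for Fabp4, -0.73 to 0.93 for Lpl, -1.83 to 0.75 for Cd36 and -2.08 to 1.86 for Pck1. Leaving out cluster 9 of both DES sections turned Fabp4 to -0.39. Both removals took the spots with the highest Fabp4 from DES sections only, which lowers it there by construction. The summed members in DES B cluster 9 fell from 19.2-fold to 5.03-fold without its 2 spots with adipocyte-restricted UMIs, a fall fixed by picking those spots for UMIs of summed genes. In single cells, totals without the 20 most abundant genes gave Fabp4 in DES-Myeloid-Lyz2hi cells 2579 CPM, Lpl in mesothelial cells 689 (CO) and 365 (DES), and Pck1 in epithelial cells 5.59 (CO) and 17.9 (DES). Means over cells gave 2011 CPM for Fabp4, 538 and 291 for Lpl, and 5.72 for Pck1 in CO. The cause of these shifts was not tested, beyond smaller totals in the first. Of the single-member values, 72 kept their direction and side of the threshold, 13 reversed direction and 7 passed only under an alternative. The fit without DES B is the same in both comparisons, so its values are counted in each. Of the counts and levels, 28 stayed near their value and 25 moved (counts within 1.5 times, levels and ratios within their 95% counting interval). Depth limits the adipocyte-restricted genes, with 2 to 105 UMIs a section.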

Other observations

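Several genes of fatty acid uptake and secretion, and 1 gene of the adipocyte marker list, differed between whole DES and CO sections, none of them a member. They were named after their values were seen, and the lists were chosen with earlier results known. Gpihbp1, which holds LPL on capillary walls, was at 20.7 and 34.4 CPM in CO A and CO B and at 1.75 and 2.73 CPM in DES A and DES B (edgeR adjusted p = 0.0212). Slc2a4, the insulin-responsive glucose transporter of fat and muscle, was at 42.7 and 62.7 against 10.1 and 14.9 CPM (edgeR adjusted p = 0.0304), and Cav1 at 115 and 190 against 54.4 and 34.5 CPM (edgeR adjusted p = 0.0443). Angptl4 was at 125 and 104 against 28.1 and 23.3 CPM (edgeR adjusted p = 0.0202), and Retnla at 6.88 and 6.71 against 0.110 and 0.101 CPM, 1 UMI in each DES section (edgeR adjusted p = 0.0190). Retnla passed the count filter through the CO sections alone, so its call is read for nothing. Acsl1, which activates long-chain fatty acids, was higher, at 5.12 and 7.52 against 69.4 and 67.2 CPM (edgeR adjusted p = 0.0177), as was Lgals12, which encodes a galectin, at 3.36 and 3.26 against 39.3 and 52.1 CPM (edgeR adjusted p = 0.0177). Over all genes 2.67% were higher and 2.63% lower, and these calls fall to 14 genes without DES A and 3 without DES B, all higher in DES. Of the genes named here only Muc16, a mesothelial marker given below, was among them, and only without DES A. Each of the other calls was thus lost when either DES section was left out. By list, 3 of 9 uptake genes were lower and 1 higher, and 2 of 4 secreted genes were lower, Retnla being 1 of the 2. Of 6 progenitor genes 1 (Dpp4) was lower, and none of 13 synthesis, 10 lipolysis, 7 transcription factor or 5 thermogenic genes passed. Of the 7 adipocyte markers that are not members, 1 was higher (Lgals12) and 0 lower. Only 1 of the 358 Lgals12 UMIs of DES A and 0 of the 515 of DES B lay in the clusters numbered 9, so this call is not one of RNA in those regions. The 5 endothelial markers had 0 of 5 passing and a median log2 difference of -1.04, smooth muscle markers -2.39 with 5 of 5 lower and pericyte markers -1.59 with 3 of 4 lower. Stromal markers had -1.15 with 1 of 6 lower, while lymphocyte markers had 2.92 with 1 of 3 higher and basal markers 6.36 with 0 of 3 passing. Mesothelial markers had 1.69 with 2 of 4 higher, Upk3b and Muc16. Muc16, and Cd79a as the lymphocyte gene called, passed the count filter through the DES sections alone, so both calls are read for nothing. Msln stood at 0.45 and Wt1 at -1.16, and neither passed. The part of these cells was not tested.

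Car3, a carbonic anhydrase gene that was among the leading genes of both clusters numbered 9, was also counted in mesothelial cells. It was at 105 CPM (103 to 107) in CO and 462 CPM (457 to 467) in DES mesothelial cells, with 13.3% and 36.8% of thinned cells holding a UMI and 0.468% and 0.884% of epithelial cells. In DES B cluster 9, 37 of its 43 UMIs were in the 2 spots with adipocyte-restricted genes and 6 in the other 45. Whole sections had 1.36, 4.89, 13.8 and 6.07 CPM in the order CO A, CO B, DES A, DES B (edgeR adjusted p = 0.285).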
